A study of Mus musculus with 12 samples.

Results

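The tumour necrosis factor (TNF) superfamily was followed in mouse colon samples with and without a claudin-2 transgene and with and without chemical injury. Its members were chosen by symbol, as every gene starting with Tnfsf or Tnfrsf together with Tnf, Lta, Ltb, Ltbr, Fas, Fasl, Cd40, Cd40lg, Cd27 and Cd70. The rule found 39 of the 19935 genes measured, of which 15 code for ligands and the others for receptors, and each member was read by 1 probe set. All 39 were matched by gene identifier to RefSeq entries of GRCm38.p6 that carry the same symbol. One further probe set, annotated to Tnfsfm13, Tnfsf13 and Tnfsf12 together, was kept out of the comparisons because it names no single gene.

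The samples were male mice of 8-10 weeks, either wild type (WT) or littermates with a Villin-Claudin-2 transgene (TG). The transgene bears the name of villin, a protein of the brush border whose promoter is widely used to express genes along the gut epithelium. Mice of both genotypes drank plain water or, for 10 days, 4% w/v dextran sodium sulfate (DSS), a polymer that injures the colon lining. RNA labelled as colon epithelial cells went onto 12 Affymetrix Mouse Gene 1.0 ST arrays, 3 for each of the 4 groups. Whether each array came from its own mouse is not stated in the labels. The p-values therefore reflect how far these arrays differ from one another, and that spread may be technical.

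TNF superfamily ligands are made mostly as trimers on the cell surface, from which some are shed. Their receptors fall into those with a death domain, which can start caspase activation, and those that recruit TRAF adaptors and switch on NF-kB, and several decoys bind ligand without passing on a signal. In the gut, TNF is a main driver of inflammation and the target of antibodies given for inflammatory bowel disease, while lymphotoxins build lymphoid follicles and the BAFF group keeps B cells alive.

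Each value below is a log2 signal minus the median of the same gene over the 12 arrays, so 0 is that median and values compare arrays for 1 gene. They hold no absolute level: a flat gene cannot be told from an undetected one, levels cannot be compared between genes, and the labelled cell type cannot be checked by the presence of its markers. Lists of 3 values follow the replicate numbers 1, 2 and 3. Cldn2 itself read -0.04, 0.02 and 0.11 on the WT water arrays and 0.36, 0.18 and -0.02 on the TG water arrays, which overlap, so WT and TG stand for the arrays' labels. Whether this probe set reads the transgene is not known here. The WT DSS arrays stood apart from one another, with 677, 3795 and 1035 of 28815 probe sets more than 1 log2 unit from their median, against 285, 53 and 90 on the TG DSS arrays and 22 to 91 on the water arrays. WT DSS replicate 2 had a median of -2.08 over 12 pan-epithelial genes, where the other 11 arrays had medians between -0.17 and 0.11. It also had medians of 3.70 over 12 neutrophil, 2.24 over 12 macrophage and monocyte, 2.99 over 10 endothelial and 2.26 over 10 fibroblast genes. In bulk RNA, fewer cells of a type and less RNA per cell cannot be told apart.

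The first comparison asked what DSS did to the family in wild-type mice. Tnf, Tnfsf10 and Tnfsf13b among the ligands and Fas and Tnfrsf23 among the receptors read higher on all 3 WT DSS arrays than on any WT water array, and Tnfsf15 and Tnfrsf21 read lower. None of these differences passed the test over all genes. With limma and Benjamini-Hochberg adjustment, 0 of 39 members passed at an adjusted p under 0.05, where 34 genes, or 0.171% of all, did. At an unadjusted p under 0.05, 9 members (23.1%) were higher, against 5.7% of all genes, and 2 (5.13%) were lower, against 9.55%, and 3040 genes of either direction reached that level. The groups did not overlap for 6 members that read higher (5.45% of all genes) and 2 that read lower (10.7%). The median change over the 39 members was 0.16, with 28 above 0, while over all genes the median was -0.04 and 40.6% lay above 0. Without WT DSS replicate 2 the members' median was 0.05, and without replicate 3 it was 0.25. The number passing was 5 without replicate 1, where 919 genes (4.61%) passed, and 6 without replicate 3, where 575 (2.88%) did. The number without overlap was 12 without replicate 1 (30.8% of members, against 28.7% of all genes) and 18 without replicate 3 (46.2%, against 31.3%), beside 20.5% of members and 16.1% of all genes with every array.

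**Figure D1:**
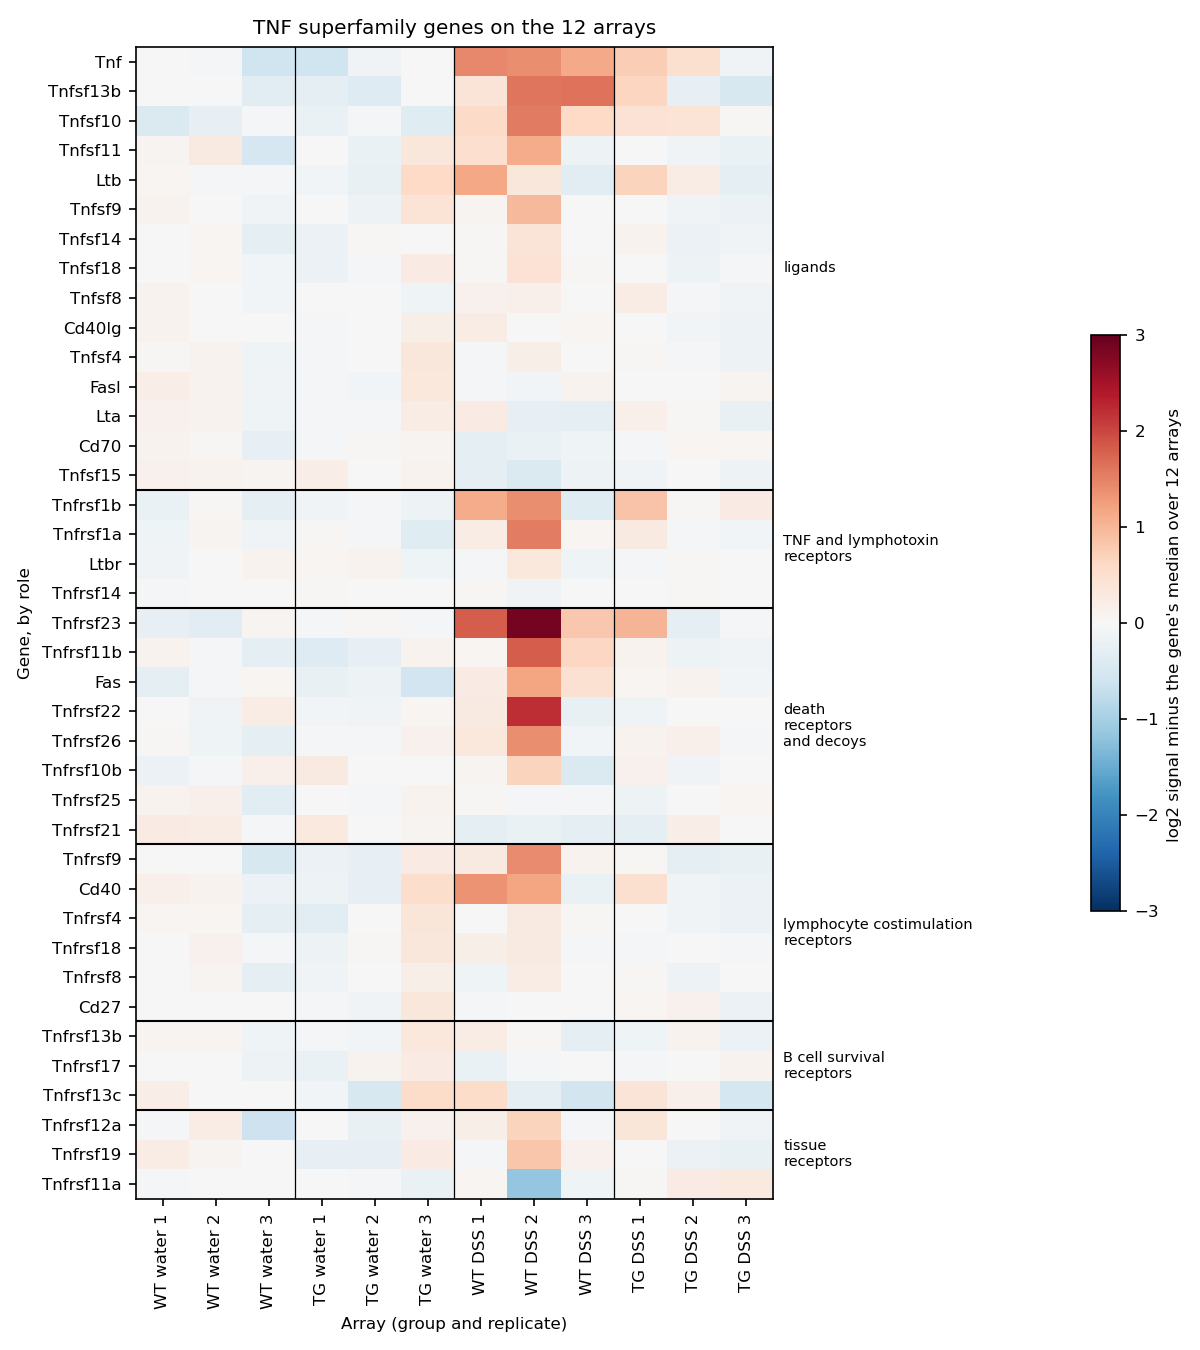
Log2 signal of the 39 members (rows, ordered by role) on the 12 arrays (columns, by group and replicate), as colour from -3 to 3 relative to each gene's median over the arrays. The strongest reds lie in the WT DSS columns, where 5, 13 and 2 members exceeded their WT water mean by over 1 log2 unit on replicates 1, 2 and 3.

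The 3 WT DSS arrays did not carry the change alike. Replicate 2 was the highest of its group in 23 of 39 members (59.0%, against 34.8% of all genes), and 13 members exceeded the WT water mean by more than 1 log2 unit on it, against 9.48% of all genes. On replicate 1, 5 members did so, which were Tnfrsf23, Tnf, Cd40, Tnfrsf1b and Ltb (2.03% of all genes). On replicate 3 the members over that mark were 2, Tnfsf13b and Tnf (1.96% of all genes). Tnf was thus above it on all 3. The median SD of the members was 0.29 within WT DSS, with the widest spread of 1.29 in Tnfrsf22, against 0.15 within WT water, 0.21 within TG water and 0.13 within TG DSS.

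Tnf, the founding cytokine of the family, had the smallest p of the members. It read -0.02, -0.04 and -0.60 on the WT water arrays, -0.61, -0.11 and 0.02 on the TG water arrays, 1.44, 1.39 and 1.13 on the WT DSS arrays, and 0.74, 0.47 and -0.11 on the TG DSS arrays. The WT DSS arrays were the highest 3 of the 12 and lay clear of both water groups. The DSS change in WT was 1.54 ± 0.25 (SE, n = 3 arrays per group), 2.91-fold, with a limma adjusted p of 0.0511. It stayed close to that size without replicate 2, at 1.51 ± 0.28 (limma adjusted p = 0.0569). The adjusted p fell below the threshold without WT DSS replicate 1 (0.0215), without replicate 3 (0.0252), and, with the change itself unaltered, without TG DSS replicate 1 (0.0349) or 3 (0.0486), each by limma. For Tnf the limma adjusted p ran from 0.0204 to 0.525 over the 24 alternatives.

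Tnf lies on chromosome 17 at 35199367 to 35202007 (GRCm38.p6, minus strand), between Ltb at 35194507 to 35196305 and Lta at 35203165 to 35205578. The 250 bases before the annotated start of Tnf and Ltb are printed here because these neighbours read differently on the same arrays, those of Tnfsf10 because all of its DSS arrays lay above all water arrays, and those of Tnfrsf1b because it is the inducible receptor of TNF. They come from RefSeq windows of GRCm38.p6, 5′ to 3′ on the gene's own strand. Capitals mark matches on either strand to an NF-kB consensus of 10 bases, the ISRE core (GAAA, any 2 bases, GAAA), the GAS core TTCNNNGAA or the TATA box TATAAA.
Tnf, chr17:35202008-35202257, minus strand: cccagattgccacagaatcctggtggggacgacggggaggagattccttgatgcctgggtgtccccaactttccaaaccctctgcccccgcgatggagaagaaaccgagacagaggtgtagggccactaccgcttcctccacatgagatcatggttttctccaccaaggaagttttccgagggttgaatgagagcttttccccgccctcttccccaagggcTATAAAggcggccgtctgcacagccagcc
Ltb, chr17:35194257-35194506, plus strand: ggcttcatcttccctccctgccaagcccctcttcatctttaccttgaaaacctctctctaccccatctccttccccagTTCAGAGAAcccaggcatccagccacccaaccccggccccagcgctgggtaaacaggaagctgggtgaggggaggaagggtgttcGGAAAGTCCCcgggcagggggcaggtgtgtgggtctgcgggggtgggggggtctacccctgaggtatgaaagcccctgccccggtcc
Tnfsf10, chr3:27316827-27317076, plus strand: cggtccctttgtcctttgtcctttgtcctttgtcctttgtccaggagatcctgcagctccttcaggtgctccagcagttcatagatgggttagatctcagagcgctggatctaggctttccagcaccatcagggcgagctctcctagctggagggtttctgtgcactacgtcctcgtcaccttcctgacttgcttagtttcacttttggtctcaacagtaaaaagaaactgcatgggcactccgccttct
Tnfrsf1b, chr4:145246871-145247120, minus strand: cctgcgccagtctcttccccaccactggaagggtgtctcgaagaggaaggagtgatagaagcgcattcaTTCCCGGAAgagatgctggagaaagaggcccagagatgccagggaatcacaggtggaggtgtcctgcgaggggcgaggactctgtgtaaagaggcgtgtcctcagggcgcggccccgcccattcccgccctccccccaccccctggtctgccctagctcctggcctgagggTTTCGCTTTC
The Tnf window held a TATA box whose first base lies 29 bases before the start and no match to the other motifs. In the Ltb window the NF-kB consensus matched at 87 bases on the opposite strand and the GAS core at 172 bases. No motif of the 4 was found in the Tnfsf10 window, and the Tnfrsf1b window held the GAS core at 181 and the ISRE core, on the opposite strand, at 10 bases. Windows of 250 bases before to 50 after the start were given for 30 members, 34 windows in all. Of them 3 held the NF-kB consensus (Ltb, Tnfrsf8 and Tnfrsf9), against 4.51% of 32851 windows over all genes. The ISRE core was in 4 (3.44% of all windows), the GAS core in 9 (8.3%) and the TATA box in 6 (13.6%), and matches of different motifs did not share bases in the printed stretches. A match describes letters only.

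Lymphotoxins alpha and beta, which form the membrane trimer that acts through Ltbr, did not follow Tnf. Ltb read 0.05, -0.05 and -0.06 on the WT water arrays, -0.09, -0.21 and 0.59 on the TG water arrays, 1.17, 0.35 and -0.34 on the WT DSS arrays, and 0.68, 0.21 and -0.26 on the TG DSS arrays. It was high on replicate 1 of both DSS groups and on TG water replicate 3, and the groups overlapped. Its change in WT was 0.41 ± 0.36 and that of Lta -0.12 ± 0.16 (limma adjusted p = 0.638 and 0.77). Lta read 0.13, 0.10 and -0.13 on the WT water arrays, -0.04, -0.06 and 0.22 on the TG water arrays, 0.24, -0.24 and -0.27 on the WT DSS arrays, and 0.16, 0.04 and -0.21 on the TG DSS arrays, which is a narrow range with overlap of all groups.

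Tnfsf10, or TRAIL, a ligand of death receptors, read -0.44, -0.25 and -0.04 on the WT water arrays, -0.19, -0.06 and -0.36 on the TG water arrays, 0.56, 1.56 and 0.59 on the WT DSS arrays, and 0.43, 0.42 and 0.04 on the TG DSS arrays. All 6 DSS arrays lay above all 6 water arrays. The change in WT was 1.15 ± 0.25, 2.21-fold, with a limma adjusted p of 0.0824. Without replicate 2, which was by far the highest, it was 0.82 ± 0.15 (limma adjusted p = 0.0576), and it passed without replicate 1 (0.0239) or replicate 3 (0.0396). For Tnfsf10 the limma adjusted p ran from 0.0139 to 0.534 over the 24 alternatives.

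Tnfsf13b, or BAFF, the survival factor of B cells, read 0.0035, -0.0035 and -0.31 on the WT water arrays, -0.28, -0.40 and 0.02 on the TG water arrays, 0.38, 1.61 and 1.64 on the WT DSS arrays, and 0.64, -0.24 and -0.47 on the TG DSS arrays. WT DSS replicates 2 and 3 stood highest, and replicate 1 of WT DSS lay below replicate 1 of TG DSS. The change in WT was 1.31 ± 0.36, 2.48-fold (limma adjusted p = 0.141), and without replicate 1 it became 1.73 ± 0.28 and passed (limma adjusted p = 0.0106). For Tnfsf13b the limma adjusted p ran from 0.0106 to 0.687 over the 24 alternatives.

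Tnfsf15, or TL1A, a costimulator of T cells that acts through Tnfrsf25, was the one ligand whose arrays under DSS all lay below water. It read 0.14, 0.10 and 0.07 on the WT water arrays, 0.20, 0.02 and 0.11 on the TG water arrays, -0.28, -0.43 and -0.16 on the WT DSS arrays, and -0.10, -0.02 and -0.16 on the TG DSS arrays. The 6 DSS arrays were all under 0 and the 6 water arrays all above it. Its change in WT was -0.40 ± 0.09, small in size (1.31-fold) and with a limma adjusted p of 0.0932. Without replicate 3 it passed, at -0.46 ± 0.09 (limma adjusted p = 0.0396). For Tnfsf15 the limma adjusted p ran from 0.0378 to 0.56 over the 24 alternatives.

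Beside these 4 and Ltb, the other 10 ligands overlapped between DSS and water in WT. Tnfsf11, or RANKL, which drives osteoclasts and the M cells over lymphoid follicles, had a change of 0.54 ± 0.30, resting on values of 0.50 and 1.10 on WT DSS replicates 1 and 2 against -0.15 on replicate 3. Tnfsf9, the ligand of the T cell receptor 4-1BB, had 0.36 ± 0.23, with 0.96 on replicate 2 and at most 0.08 on WT DSS replicates 1 and 3. Fasl, the killer ligand of Fas, read 0.20, 0.10 and -0.10 on the WT water arrays, -0.07, -0.08 and 0.33 on the TG water arrays, -0.05, -0.07 and 0.12 on the WT DSS arrays, and 0.0009, -0.0009 and 0.08 on the TG DSS arrays. TG water replicate 3 was its highest array, and the change in WT was -0.07 ± 0.12. Cd40lg, the helper T cell ligand of CD40, read 0.11, 0.01 and -0.02 on the WT water arrays, -0.07, -0.01 and 0.19 on the TG water arrays, 0.23, -0.01 and 0.05 on the WT DSS arrays, and 0.02, -0.08 and -0.16 on the TG DSS arrays. Its groups overlapped, with a change of 0.06 ± 0.10. The changes of Tnfsf14, Tnfsf18, Tnfsf8, Tnfsf4, Cd70 and Lta lay between -0.17 and 0.22.

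**Figure D2:**
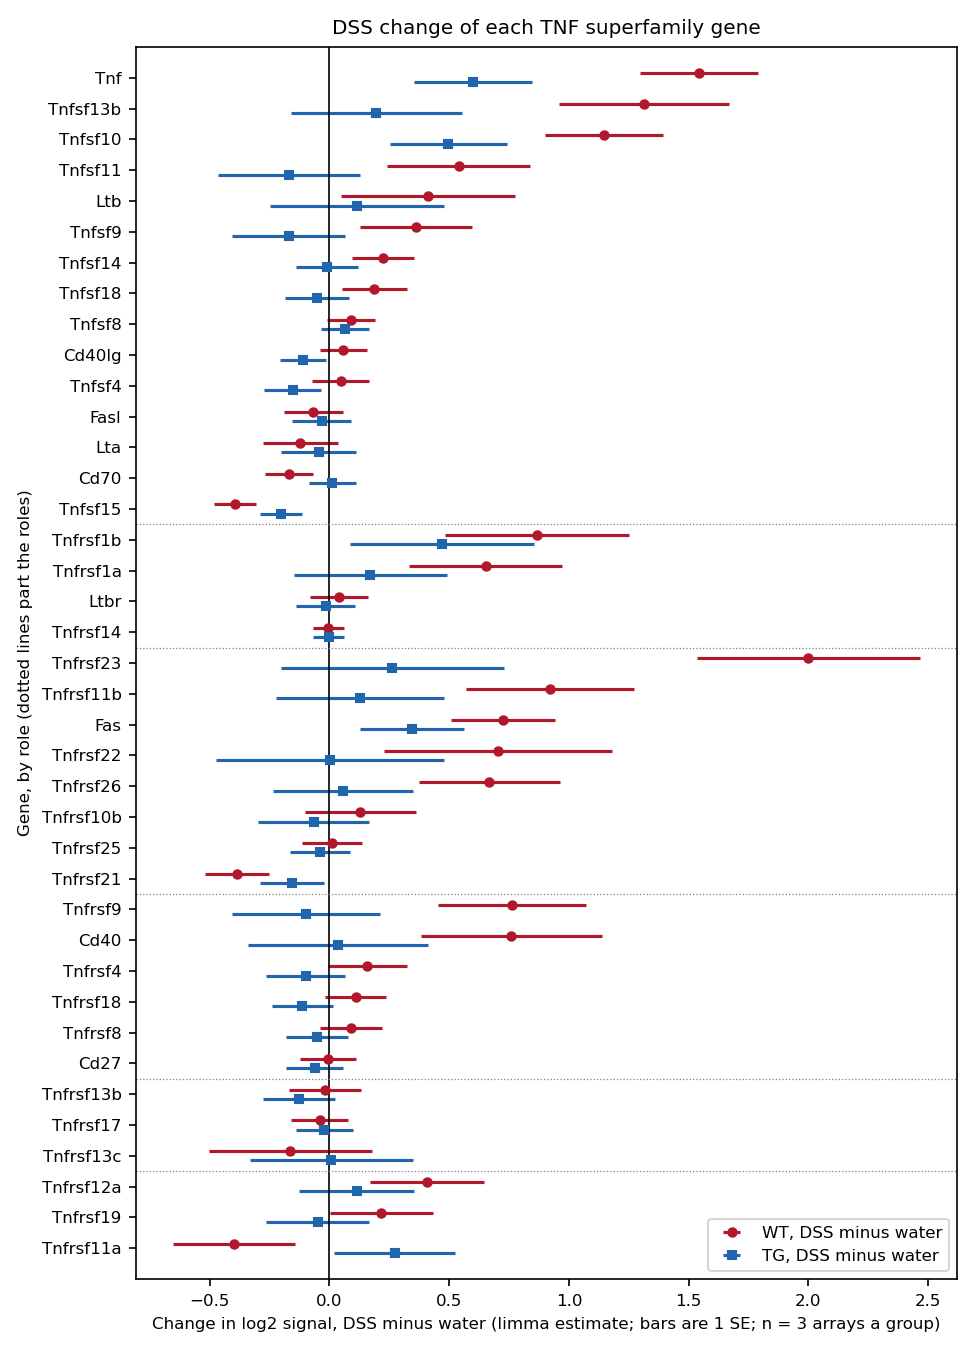
Change in log2 signal from water to DSS for each of the 39 members, in WT (red circles) and TG (blue squares), as limma estimates with bars of 1 SE (n = 3 arrays a group) and dotted lines between roles. The WT points of Tnf, Tnfsf13b, Tnfsf10 and Tnfrsf23 lie furthest right, at 1.54, 1.31, 1.15 and 2.00, with TG points of 0.60, 0.20, 0.50 and 0.26.

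Both receptors of TNF read higher on average under DSS in WT, each with overlap. Tnfrsf1b, the inducible receptor TNFR2 found mainly on immune and endothelial cells, read -0.20, 0.03 and -0.27 on the WT water arrays, -0.10, -0.03 and -0.14 on the TG water arrays, 1.12, 1.39 and -0.36 on the WT DSS arrays, and 0.85, 0.04 and 0.25 on the TG DSS arrays. It was high on WT DSS replicates 1 and 2 and on TG DSS replicate 1, while WT DSS replicate 3 was the lowest of the 12. The change in WT was 0.87 ± 0.38 (limma adjusted p = 0.32), and without replicate 3 it was 1.40 ± 0.21 and passed (limma adjusted p = 0.0184). For Tnfrsf1b the limma adjusted p ran from 0.0184 to 0.689 over the 24 alternatives. Within each DSS group the arrays stood in the same order for macrophage and monocyte genes. Of these, 5 of 12 were higher at an unadjusted p under 0.05 in WT (5.7% of all genes). That list's medians were 1.24, 2.24 and -0.08 on the WT DSS and 0.98, -0.28 and -0.17 on the TG DSS arrays, against -0.05 to 0.20 on WT water and -0.44 to 0.10 on TG water. The part of these cells in the Tnfrsf1b values was not tested.

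Tnfrsf1a, the death domain receptor TNFR1 found on most cells, read -0.13, 0.09 and -0.10 on the WT water arrays, 0.03, -0.03 and -0.37 on the TG water arrays, 0.22, 1.53 and 0.07 on the WT DSS arrays, and 0.27, -0.05 and -0.09 on the TG DSS arrays. WT DSS replicate 2 stood alone, and every other array lay between -0.37 and 0.27. Its change in WT of 0.65 ± 0.32 became 0.19 ± 0.15 without that array (limma adjusted p = 0.364 and 0.72). Ltbr, the lymphotoxin beta receptor of epithelial and stromal cells, had a change of 0.04 ± 0.12 and Tnfrsf14, the receptor HVEM, one of -0.01 ± 0.07, with limma adjusted p of 0.92 and 0.982. Ltbr read -0.11, 0.02 and 0.12 on the WT water arrays, 0.06, 0.11 and -0.14 on the TG water arrays, -0.04, 0.32 and -0.13 on the WT DSS arrays, and -0.02, 0.03 and -0.02 on the TG DSS arrays. All groups overlapped, and Tnfrsf14 was narrower still, between -0.09 and 0.04 over the 12 arrays.

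The death receptors and decoys had the highest median change of the 6 roles, 0.69 over 8 genes, of which 4 were higher (5.7% of all genes) and 1 lower (9.55%) at an unadjusted p under 0.05. Fas, which starts apoptosis when bound by Fasl, read -0.27, -0.06 and 0.06 on the WT water arrays, -0.22, -0.15 and -0.56 on the TG water arrays, 0.26, 1.19 and 0.46 on the WT DSS arrays, and 0.06, 0.12 and -0.08 on the TG DSS arrays. All 3 WT DSS arrays lay above the 6 water arrays, with replicate 2 the highest. The change in WT was 0.73 ± 0.22, 1.65-fold (limma adjusted p = 0.174). It was 0.45 ± 0.15 without replicate 2, and 0.92 ± 0.21 without replicate 1, where it passed (limma adjusted p = 0.0435). For Fas the limma adjusted p ran from 0.0435 to 0.624 over the 24 alternatives.

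Tnfrsf23, a decoy receptor of mouse TRAIL, had the largest change of the members. It read -0.25, -0.33 and 0.07 on the WT water arrays, -0.07, 0.04 and -0.04 on the TG water arrays, 1.81, 2.88 and 0.80 on the WT DSS arrays, and 1.03, -0.27 and -0.04 on the TG DSS arrays. WT DSS arrays were well above water on all 3 replicates, and TG DSS replicate 1 was the only other array above the range of the water arrays. The change in WT was 2.00 ± 0.46, 4.00-fold (limma adjusted p = 0.102). It was 1.47 ± 0.37 without replicate 2, and 2.51 ± 0.39 without replicate 3, where it passed (limma adjusted p = 0.0189). For Tnfrsf23 the limma adjusted p ran from 0.0135 to 0.529 over the 24 alternatives.

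Tnfrsf22, the other TRAIL decoy, and Tnfrsf26 lie beside Tnfrsf23 on chromosome 7, at 143634808 to 143649675 and 143607685 to 143627845, with Tnfrsf23 at 143665807 to 143686436. These neighbours are alike in sequence, and how far their probes share signal was not tested, so each value is uncertain to that extent. Tnfrsf22 read 0.02, -0.10 and 0.23 on the WT water arrays, -0.09, -0.10 and 0.06 on the TG water arrays, 0.26, 2.21 and -0.22 on the WT DSS arrays, and -0.12, 0.02 and -0.02 on the TG DSS arrays. Only WT DSS replicate 2 was far from 0, and the change of 0.70 ± 0.48 became -0.02 ± 0.15 without it. Tnfrsf26 read 0.02, -0.14 and -0.26 on the WT water arrays, -0.02, -0.06 and 0.13 on the TG water arrays, 0.33, 1.39 and -0.09 on the WT DSS arrays, and 0.10, 0.15 and -0.03 on the TG DSS arrays, again highest on WT DSS replicate 2, and its change of 0.67 ± 0.29 became 0.24 ± 0.14. On replicate 1 all 3 neighbours stood above every water array, and on replicate 3 only Tnfrsf23 did.

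Tnfrsf11b, or osteoprotegerin, a secreted decoy for RANKL and TRAIL, read 0.09, -0.06 and -0.29 on the WT water arrays, -0.40, -0.24 and 0.10 on the TG water arrays, 0.06, 1.81 and 0.63 on the WT DSS arrays, and 0.09, -0.14 and -0.11 on the TG DSS arrays. WT DSS replicates 2 and 3 were the highest arrays, while replicate 1 lay within the water arrays. Its change in WT was 0.92 ± 0.35 (limma adjusted p = 0.264). It was 0.43 ± 0.20 without replicate 2 and 1.31 ± 0.30 without replicate 1, where it passed (limma adjusted p = 0.0414). For Tnfrsf11b the limma adjusted p ran from 0.0414 to 0.919 over the 24 alternatives. Tnfrsf21, the death receptor DR6, went the other way. It read 0.24, 0.22 and -0.07 on the WT water arrays, 0.29, 0.02 and 0.07 on the TG water arrays, -0.26, -0.21 and -0.30 on the WT DSS arrays, and -0.27, 0.20 and -0.02 on the TG DSS arrays. WT DSS lay below all water arrays, and the change was -0.39 ± 0.13 (limma adjusted p = 0.218). Tnfrsf10b, the mouse TRAIL death receptor, and Tnfrsf25, the TL1A receptor, had changes of 0.13 ± 0.23 and 0.01 ± 0.13.

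**Figure D3:**
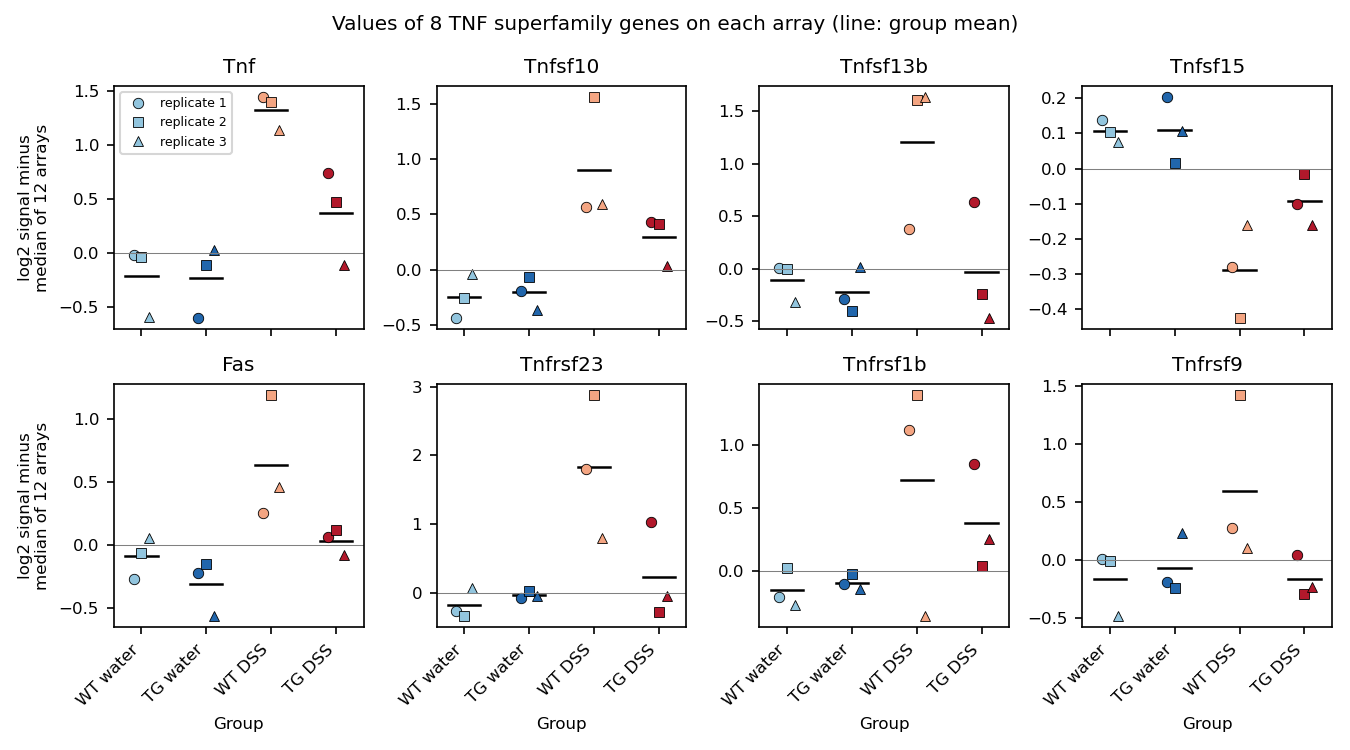
Log2 signal relative to the 12-array median for 8 members (panels, each with its own vertical scale) in the 4 groups, with 1 point per array, a shape per replicate number and a line at the group mean. Tnf, Tnfsf10, Tnfsf13b, Fas and Tnfrsf23 show all 3 WT DSS points above the WT water points, and Tnfsf15 shows them all below.

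Among the costimulation receptors of lymphocytes, Cd40 and Tnfrsf9 had the largest changes in WT. Cd40, on B cells, macrophages and dendritic cells, read 0.15, 0.10 and -0.19 on the WT water arrays, -0.14, -0.25 and 0.52 on the TG water arrays, 1.34, 1.19 and -0.19 on the WT DSS arrays, and 0.49, -0.10 and -0.16 on the TG DSS arrays. WT DSS replicates 1 and 2 stood far above the rest, and replicate 3 lay among the lowest arrays. The change was 0.76 ± 0.38 (limma adjusted p = 0.369), and 1.25 ± 0.26 without replicate 3, where it passed (limma adjusted p = 0.0413). For Cd40 the limma adjusted p ran from 0.0413 to 0.914 over the 24 alternatives. Tnfrsf9, or 4-1BB, of activated T cells, read 0.01, -0.01 and -0.48 on the WT water arrays, -0.19, -0.24 and 0.24 on the TG water arrays, 0.27, 1.43 and 0.10 on the WT DSS arrays, and 0.04, -0.29 and -0.23 on the TG DSS arrays. Its WT DSS arrays lay above the WT water arrays, replicates 1 and 3 by little. Its change was 0.76 ± 0.31 with all arrays and 0.35 ± 0.19 without replicate 2 (limma adjusted p = 0.285 and 0.505). Tnfrsf4, Tnfrsf18, Tnfrsf8 and Cd27, the other T cell receptors of this role, had changes of -0.0059 to 0.16. Tnfrsf8, or CD30, read 0.02, 0.08 and -0.29 on the WT water arrays, -0.11, -0.02 and 0.18 on the TG water arrays, -0.13, 0.21 and -0.01 on the WT DSS arrays, and 0.03, -0.14 and 0.01 on the TG DSS arrays, and its groups overlapped. Of 11 T and NK cell genes 2 were higher in WT at an unadjusted p under 0.05 by limma (5.7% of all genes). They were the CD3 chains Cd3g at 1.503 ± 0.41 and Cd3e at 0.82 ± 0.25 (limma adjusted p = 0.141 and 0.18), and 9 of the 11 changes lay above 0. That list's medians were 0.18, 0.08 and 0.09 on the WT DSS arrays, against -0.32 to 0.07 on WT water, -0.15 to 0.16 on TG water and -0.12 to 0.01 on TG DSS, and the part of these cells in the values of this role was not tested.

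The 3 receptors of the BAFF and APRIL group, which carry survival signals in B cells and plasma cells, had differences smaller than their SE between DSS and water. The changes in WT were -0.16 ± 0.34 for Tnfrsf13c, -0.02 ± 0.15 for Tnfrsf13b and -0.04 ± 0.12 for Tnfrsf17. Tnfrsf17, or BCMA, which keeps plasma cells alive, read 0.02, 0.02 and -0.16 on the WT water arrays, -0.21, 0.09 and 0.24 on the TG water arrays, -0.20, -0.06 and 0.02 on the WT DSS arrays, and -0.03, -0.02 and 0.11 on the TG DSS arrays. Its groups overlapped. Tnfrsf13c, or BAFF-R, varied within every group except WT water. It read 0.19, 0.02 and -0.02 on the WT water arrays, -0.08, -0.49 and 0.56 on the TG water arrays, 0.55, -0.29 and -0.56 on the WT DSS arrays, and 0.40, 0.15 and -0.53 on the TG DSS arrays. Cd79a, a part of the B cell antigen receptor, read 0.36, -0.49 and 0.0034 on the WT water arrays, -0.07, -1.60 and 0.87 on the TG water arrays, 1.66, -0.0034 and -1.73 on the WT DSS arrays, and 1.17, 0.15 and -1.14 on the TG DSS arrays. The arrays highest in Cd79a, replicate 1 of both DSS groups and TG water replicate 3, were also those highest in Tnfrsf13c and Ltb. The B and plasma cell list, of which 10 of 12 genes were measured, ran from 0.0037 to 0.22 in median on the WT water arrays, -0.40 to 0.55 on TG water, -0.42 to 0.96 on WT DSS and -0.55 to 0.70 on TG DSS. Its highest medians fell on the same arrays as those of Cd79a, but not every gene of the list followed. Jchain read -1.19, 0.29 and 0.48 and Sdc1 -0.10, 1.06 and 0.17 on the WT DSS arrays. The part of B cells in the Tnfrsf13c and Ltb values was not tested.

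**Figure D4:**
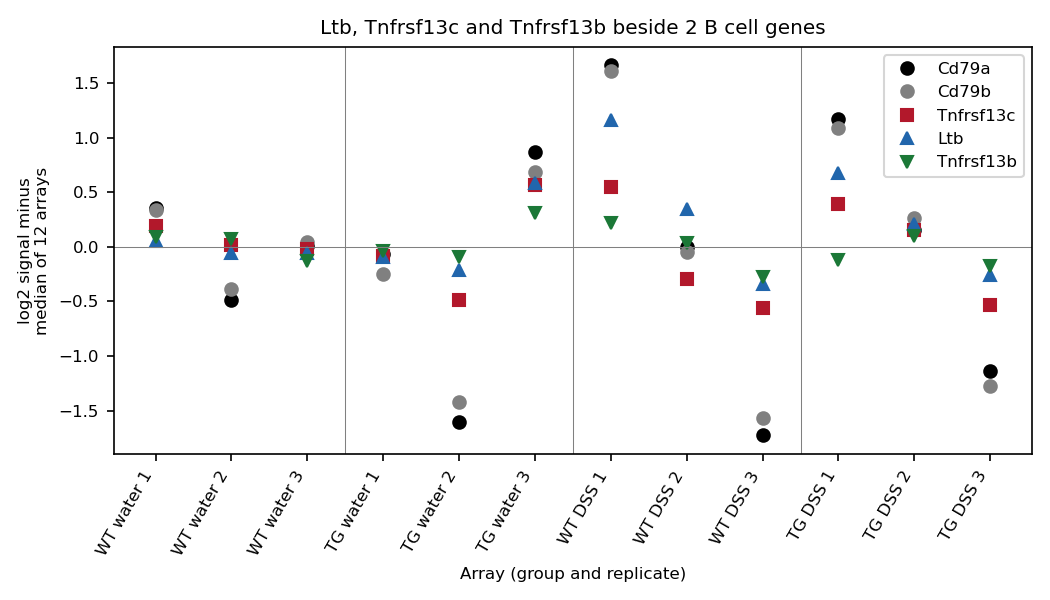
Log2 signal relative to the 12-array median (vertical axis) of Ltb, Tnfrsf13c, Tnfrsf13b and the B cell genes Cd79a and Cd79b on each array (horizontal axis, by group and replicate), with 1 point per gene and array. Cd79a spans from -1.73 on WT DSS replicate 3 to 1.66 on WT DSS replicate 1, where Tnfrsf13c read -0.56 and 0.55.

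Of the tissue receptors, Tnfrsf11a, the RANK receptor of osteoclasts and gut epithelium, read -0.06, 0.0014 and 0.01 on the WT water arrays, -0.0014, -0.03 and -0.20 on the TG water arrays, 0.05, -1.16 and -0.13 on the WT DSS arrays, and 0.04, 0.24 and 0.30 on the TG DSS arrays. WT DSS replicate 2 alone was far below 0, and the change of -0.40 ± 0.25 became -0.02 ± 0.11 without it. Tnfrsf12a, the injury-linked receptor of TWEAK, and Tnfrsf19, also called TROY, a gene of gut stem cells, had changes of 0.41 ± 0.24 and 0.22 ± 0.22, with limma adjusted p of 0.448 and 0.688. Tnfrsf12a read -0.06, 0.21 and -0.61 on the WT water arrays, 0.01, -0.22 and 0.13 on the TG water arrays, 0.17, 0.66 and -0.06 on the WT DSS arrays, and 0.37, -0.01 and -0.11 on the TG DSS arrays. Tnfrsf19 read 0.22, 0.08 and -0.02 on the WT water arrays, -0.24, -0.24 and 0.25 on the TG water arrays, -0.04, 0.84 and 0.14 on the WT DSS arrays, and 0.02, -0.17 and -0.23 on the TG DSS arrays. Both were highest on WT DSS replicate 2, and all groups overlapped.

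Targets, adaptors and signalling genes of the pathway were taken from textbook lists. Of 16 textbook TNF targets, 0 passed over all genes, and the median change was 1.26. At an unadjusted p under 0.05 by limma, 8 were higher (5.7% of all genes) and 1 lower (9.55%). Cxcl2, a neutrophil attractant, read -0.09, 0.09 and -0.35 on the WT water arrays, -0.14, -0.27 and 0.31 on the TG water arrays, 4.38, 6.18 and 2.30 on the WT DSS arrays, and 0.88, -0.11 and -0.17 on the TG DSS arrays, with a change of 4.41 ± 0.75 (limma adjusted p = 0.0618). It stood far above water on all 3 WT DSS arrays. Ptgs2, the inducible cyclooxygenase, had a change of 3.28 ± 0.81, Tnfaip2 one of 2.36 ± 0.64 and Ccl20, an epithelial attractant of lymphocytes, one of -0.95 ± 0.28, with limma adjusted p of 0.117, 0.14 and 0.164. The list's array medians were 0.74, 3.00 and -0.06 on WT DSS, while those of the family itself were 0.13, 0.35 and -0.0043. Neutrophil genes, which were 10 higher and 1 lower of 12 at an unadjusted p under 0.05 with a median change of 2.09, had array medians of 1.84, 3.70 and 0.24. They ranged from -0.26 to 0.03 on WT water, from -0.12 to 0.0030 on TG water and from -0.08 to 0.61 on TG DSS, and their part in these results was not tested.

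**Figure D5:**
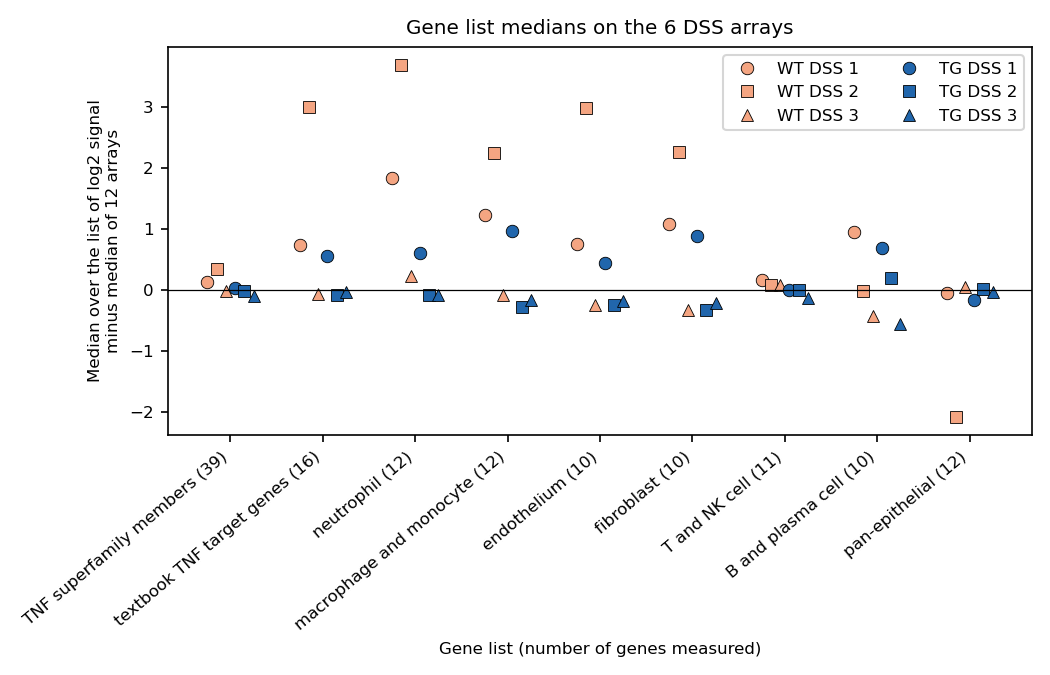
Median log2 signal relative to the 12-array median (vertical axis) over 9 gene lists (horizontal axis, number of measured genes in brackets) on each of the 6 DSS arrays, WT in orange and TG in blue. WT DSS replicate 2 is highest for TNF targets (3.00), neutrophil (3.70), macrophage (2.24), endothelium (2.99) and fibroblast (2.26) genes and lowest for pan-epithelial genes (-2.08).

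Of the receptor adaptors and cell death genes, 0 of 16 passed in WT, with a median change of 0.19. At an unadjusted p under 0.05, 5 were higher (5.7% of all genes) and 2 lower (9.55%). Traf4, an adaptor of epithelia, had -0.76 ± 0.19 (limma adjusted p = 0.124), and Traf5, Cflar, which blocks caspase-8, and Traf1 had 0.71 ± 0.25, 0.61 ± 0.20 and 0.57 ± 0.22. In the NF-kB list 0 of 22 passed, 7 were higher and 2 lower at that level, beside the same shares of all genes, and the median was 0.14. Ikbkb, a kinase that releases NF-kB, had 0.31 ± 0.08, and the subunits Nfkb2 and Rel and the inhibitor Nfkbia had 0.77 ± 0.22, 0.79 ± 0.26 and 0.88 ± 0.29. Among 6 genes of lymphoid organisation 0 passed and 1, Ccr7 at 0.68 ± 0.28, was higher at an unadjusted p under 0.05. Of the family genes outside the symbol rule, Eda, Eda2r, Edar, Ngfr and Relt, 0 of 5 passed or reached that level.

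In TG mice Tnf again had the smallest p between water and DSS, with a change of 0.60 ± 0.25. By limma, 0 of 39 members passed, as did 0 of all genes (0.0%), with 475 genes at an unadjusted p under 0.05. At that level 1 member was higher (1.21% of all genes), Tnf, and 1 lower (1.17%), Tnfsf15 at -0.20 ± 0.09, each with a limma adjusted p of 1. These counts depend on the spread of the WT arrays. With only the TG groups fitted, 5 members were higher and 0 lower at that level, among 1126 genes in all. Without WT DSS replicate 2, an array outside this comparison, 4 were higher and 1 lower, among 860 genes. TG DSS replicates 1 and 2 exceeded the water arrays in Tnf, and replicate 3 did not. The groups did not overlap in 4 members that read higher (6.76% of all genes), which were Tnfsf10 at 0.50 ± 0.25, Fas at 0.35 ± 0.22, Tnfrsf1b at 0.47 ± 0.38 and Tnfrsf11a at 0.27 ± 0.25, and in 1 that read lower (6.64%), Tnfsf15. The member median was -0.02, against -0.01 for all genes, with 17 members above 0. Without TG DSS replicate 1 it was -0.09 and without TG water replicate 3 it was 0.06, and in the second case 10 members were clear of overlap (25.6%, against 25.2% of all genes).

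The TG DSS arrays differed among themselves as well. Replicate 1 was the highest of its group in 24 of 39 members (61.5%, against 36.6% of all genes), and in 1 of them, Tnfrsf23, exceeded the TG water mean by over 1 log2 unit (1.72% of all genes). On replicates 2 and 3, 0 members did so, where 0.145% and 0.156% of all genes did. Replicate 1 also had the highest list medians of its group for neutrophil (0.61), macrophage (0.98), endothelial (0.45) and fibroblast genes (0.89), whose part was not tested. Without it the Tnf change in TG was 0.41, and with replicate 3 left out it was 0.84. Tnfrsf23 in TG was 0.26 ± 0.46 with all arrays and -0.13 without replicate 1. Around the family in TG, the NF-kB list had its smallest p in Cyld, a deubiquitinase that restrains NF-kB, at 0.25 ± 0.09, the subunit Rel at 0.69 ± 0.26 and Sharpin, a part of the linear ubiquitin ligase, at -0.20 ± 0.09. Ripk3, a kinase of necroptosis, led the adaptor list at 0.53 ± 0.21. The limma adjusted p of all 4 was 1, and of the 16 TNF targets 0 reached an unadjusted p under 0.05.

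Between TG and WT with water alone, the 39 differences were small beside the spread of the arrays. By limma, 0 of 39 members passed, as did 0 of all genes (0.0%), and 0 members against 61 genes had an unadjusted p under 0.05. Those p-values use a spread shared with the more variable WT DSS arrays. With only the water groups fitted, 0 members against 423 genes reached that level. The counts thus do not show that the genotypes were alike at water. In 0 members did the groups fail to overlap, where 1.93% of all genes were clear of overlap with TG higher and 3.05% with TG lower. The smallest p belonged to Fas at -0.22 ± 0.22, Tnfrsf19 at -0.17 ± 0.22, Tnfsf4 (OX40 ligand) at 0.09 ± 0.12, Tnfrsf17 at 0.08 ± 0.12, Tnfrsf8 (CD30) at 0.08 ± 0.13 and Tnfrsf12a at 0.12 ± 0.24, each with a limma adjusted p of 1. Tnfsf4 read 0.05, 0.11 and -0.14 on the WT water arrays, -0.05, 0.0005 and 0.35 on the TG water arrays, -0.03, 0.18 and -0.0005 on the WT DSS arrays, and 0.03, -0.05 and -0.15 on the TG DSS arrays. TG water replicate 3 was the highest array of both Tnfsf4 and Fasl, and also of the water arrays in Tnfrsf19. All 39 changes fell between -0.22 and 0.15, the median being 0.03 against 0.01 for all genes, and Tnf itself was -0.02 ± 0.25.

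Under DSS, TG mice read lower than WT in the members with the smallest p for this comparison. Tnf differed by -0.96 ± 0.25, Tnfsf13b by -1.23 ± 0.36, Tnfrsf23 by -1.59 ± 0.46 and Fas by -0.60 ± 0.22 in TG minus WT, with limma adjusted p of 0.135, 0.162, 0.167 and 0.231. By limma, 0 of 39 members passed, where 8 genes, or 0.0401%, did. At an unadjusted p under 0.05, 3 members were higher (10.3% of all genes) and 7 lower (5.63%), among 3178 genes in all. The median was -0.17 with 29 members below 0, against 0.04 for all genes. Without WT DSS replicate 2 the median was -0.045, and without replicate 3 it was -0.27. This comparison shares the WT DSS arrays with the DSS change in WT, so both sets of values rest on the same 3 arrays, and TG and WT name labels that Cldn2 did not separate at water.

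The groups did not overlap under DSS in 6 members with TG lower (4.9% of all genes), which were Tnf, Fas, Tnfsf10, Tnfrsf9, Tnfrsf4 and Tnfsf18, and in 2 with TG higher (14.1%), Cd70 and Tnfsf15. These 8 were 20.5% of the members, against 19.0% of all genes in either direction. With TG DSS replicate 1 left out they were 20 (51.3%, against 33.3% of all genes), with WT DSS replicate 1 left out 13 (33.3%, against 34.2%), and with WT DSS replicate 3 left out 18 (46.2%, against 34.9%). The 3 WT arrays of Tnf started at 1.13 and the 3 TG arrays ended at 0.74. For Tnfrsf4 these limits were 0.002 and -0.002, and for Tnfsf18 they were 0.0293 and 0.0168, so both were barely apart. The differences of Tnfrsf4 and Tnfsf18 were -0.19 ± 0.17 and -0.225 ± 0.135. Tnfsf10 differed by -0.61 ± 0.25 and Tnfrsf9 by -0.76 ± 0.31, and without WT DSS replicate 2 these were -0.28 ± 0.15 and -0.35 ± 0.19. Cd70, the ligand of Cd27, read -0.27, -0.19 and -0.14 in WT and -0.03, 0.05 and 0.07 in TG under DSS, a difference of 0.23 ± 0.10. That of Tnfsf15 was 0.20 ± 0.09. Tnfrsf11a was higher in TG by 0.61 ± 0.25 with all arrays and by 0.23 ± 0.11 without WT DSS replicate 2.

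Without that array the Tnf difference was -0.92 ± 0.28, that of Tnfsf13b -1.03 ± 0.38, that of Tnfrsf23 -1.07 ± 0.37 and that of Fas -0.32 ± 0.15. Of these 4, Tnf moved least and Fas most in proportion. Tnfrsf11b went from -0.89 ± 0.35 to -0.40 ± 0.20, Tnfrsf1a from -0.56 ± 0.32 to -0.10 ± 0.15 and Tnfrsf1b from -0.34 ± 0.38 to -0.0011 ± 0.36. For both TNF receptors the difference between the genotypes was then smaller than its SE. Without WT DSS replicate 1, Tnfsf13b at -1.65 ± 0.28 and Tnfrsf11b at -1.27 ± 0.30 passed (limma adjusted p = 0.0116 and 0.0401), where 5.85% of all genes did. Tnfrsf23 passed without replicate 3, at -2.10 ± 0.39 (limma adjusted p = 0.047), where 0.823% of all genes did. For Tnfsf13b the limma adjusted p ran from 0.0116 to 0.807 over the 24 alternatives. For Tnfrsf11b the limma adjusted p ran from 0.0401 to 0.954 over the 24 alternatives. For Tnfrsf23 the limma adjusted p ran from 0.0415 to 0.527 over the 24 alternatives.

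Outside the family, Cxcl2 differed by -4.09 ± 0.75 in TG minus WT under DSS (limma adjusted p = 0.0882). Of the 16 TNF targets 0 passed, and the median was -1.12. At an unadjusted p under 0.05, 1 target was higher (10.3% of all genes) and 5 were lower (5.63%). Neutrophil genes, of which 8 of 12 were lower and 1 higher at that level, had a median of -1.84. The changes lay above 0 in 0 of 12 macrophage and monocyte genes (median -0.99), 0 of 10 endothelial genes (-1.15) and 0 of 10 fibroblast genes (-0.85). They did so in 1 of 11 T and NK cell genes (-0.24), 7 of 10 B and plasma cell genes (0.03) and 12 of 12 pan-epithelial genes (0.61). Over all genes 57.9% lay above 0. At water, TG minus WT was already above 0 in only 1 of 12 macrophage and monocyte genes (-0.37) and 0 of 10 fibroblast genes (-0.31). It was so in 6 of 10 endothelial genes (0.01) and 54.7% of all genes. The pan-epithelial array medians were -0.05, -2.08 and 0.06 on WT DSS and -0.17, 0.03 and -0.04 on TG DSS. Only WT DSS replicate 2 stood apart in that list. The part of these cells in the members' differences was not tested. At an unadjusted p under 0.05 the adaptor list had 2 higher (10.3% of all genes) and 3 lower (5.63%) of 16, with a median of -0.02. The NF-kB list had 2 higher and 2 lower of 22, beside the same shares of all genes, and a median of -0.10.

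Whether the DSS change itself differed between the genotypes was tested as an interaction, in which the change under DSS in WT is taken from the change in TG. By limma, 0 of 39 members passed, as did 0 of all genes (0.0%), and 1167 genes had an unadjusted p under 0.05. At that level 0 members were higher (4.58% of all genes) and 2 were lower (1.27%), Tnf at -0.94 ± 0.35 and Tnfrsf23 at -1.74 ± 0.66, with limma adjusted p of 0.808 and 0.822. Tnfsf13b had -1.12 ± 0.50, Tnfrsf9 -0.86 ± 0.44, Tnfrsf11a 0.67 ± 0.36 and Tnfsf10 -0.65 ± 0.35. The median over the members was -0.23, with 30 below 0, against 0.01 over all genes. Without WT DSS replicate 2 that median was -0.09, without TG water replicate 3 it was -0.10, and without WT water replicate 3 it was -0.14. Without WT DSS replicate 2 the interaction was -0.91 ± 0.37 in Tnf, -1.21 ± 0.50 in Tnfrsf23 and -0.32 ± 0.21 in Tnfsf10. No member's DSS change thus differed between the genotypes past the threshold over all genes.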

How the data were processed

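Signals of 12 Affymetrix Mouse Gene 1.0 ST arrays were summarised by the authors with RMA in Affymetrix Expression Console, per the submitters' processing notes. RMA gives log2 values, and the deposited numbers were read on that scale, although no source used here names the base. Medians over the 12 arrays were 0 (within 5e-07) for each probe set, so values are centred and dim genes could not be filtered. Of 28815 probe sets, 21780 carried 1 gene symbol, 1605 several and 5430 none. Probe sets were averaged per gene over the arrays (998 of 19935 genes had several).

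The 4 group means were estimated from the 12 arrays together by limma (version 3.58.1, under R 4.3.3, default eBayes), with two-sided p-values and Benjamini-Hochberg adjustment across 19935 genes. The fit shares 1 estimate of the spread over the 4 groups, although WT DSS was more variable than the others. Each SE and p of a comparison without WT DSS therefore also carries the spread of those arrays. With 3 arrays against 3, permutation could reach no p below 0.1 and was not used. The fit was tested on simulated data in which each gene had the same SD in all 4 groups. It recovered 77.6% of changes of 1 log2 unit placed in WT DSS, with 13 false calls among the unchanged genes. That setting lacks the unequal spread of the real arrays, so it cannot show how the fit performs under it. Tables and figures used Python 3.11.15, pandas 2.3.3 and matplotlib 3.10.9. The number of arrays limits the precision.

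The members and gene lists were chosen with earlier results of these data known. Array values are given for 10 core genes (Tnf, Lta, Ltb, Ltbr, Tnfrsf1a, Tnfrsf1b, Fas, Fasl, Cd40, Cd40lg) and for the 6 members with the smallest p in each comparison, and up to 4 genes per pathway list are named by smallest p. Array values of Tnfrsf21, Tnfrsf22, Tnfrsf26, Tnfrsf11b, Tnfrsf13c, Cd70, Cd79a and Cxcl2 were added after they were seen wherever that rule did not name them. Alternatives were a fit on 2 groups alone, a replicate block, single-probe-set genes, array centring, quantile normalization, trend and robust eBayes, weights per array or per group, the more variable genes, stricter thresholds and the omission of each array.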

Additional observations from a re-analysis of the deposited data

Results flagged for a closer look

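The probe set annotated to Tnfsfm13, Tnfsf13 (APRIL, a survival ligand of plasma cells) and Tnfsf12 (TWEAK, the ligand of Tnfrsf12a) entered no comparison. It drew attention because its WT DSS values all exceeded its WT water values. It read -0.03, -0.02 and -0.0038 on the WT water arrays and 0.25, 0.82 and 0.03 on the WT DSS arrays, which did not overlap. Of all genes with 1 symbol, 5.45% were clear of overlap in that direction in WT. The group means were -0.02 ± 0.01 and 0.37 ± 0.41 (SD, n = 3), a difference of 0.39. On the TG arrays it read -0.11, -0.10 and 0.08 with water and 0.17, 0.0038 and -0.08 with DSS, which overlapped, a difference of 0.08. Which of the 3 genes gives the signal is not given in the sources used here, and the difference between genotypes was not tested.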

How the results depend on the processing

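No member passed in any of the 5 comparisons in the reported fit, so no called value could be reversed. Among uncalled member values the sign differed from the reported one in 46 of 920 for DSS in WT, 86 of 920 for TG against WT at water, 61 of 920 for DSS in TG, 39 of 920 for TG against WT under DSS and 51 of 881 for the interaction. Stricter thresholds, weights per group, a trended fit or the omission of an array outside the groups compared leave a change unaltered. Signs could not differ there, so these counts do not measure how stable the signs are. Members passing for DSS in WT numbered 1 with each array centred on its median (Tnf, limma adjusted p = 0.0484), 1 among genes with a spread above the median, which held 23 members (Tnf, limma adjusted p = 0.0309), 5 with weights per array, and 0 to 6 when single arrays were left out. Weights per array also gave 2 members for TG against WT at water and 1 under DSS, where leaving out arrays gave 0 to 2. Among genes with a spread above the median the members' median change was 0.65 for DSS in WT, against -0.03 for all such genes. It was -0.47 for TG against WT under DSS (0.01 for all) and -0.48 for the interaction (-0.0034 for all). That spread was the SD over all 12 arrays, group differences included. The filter thus favours genes that differ between groups, so these medians and the Tnf value under it are no independent support. Members without overlap ranged from 8 to 18 for DSS in WT, 0 to 4 for TG against WT at water, 5 to 10 for DSS in TG and 8 to 20 for TG against WT under DSS when single arrays were left out. Over all genes the shares also grew with fewer arrays, for DSS in WT from 16.1% to between 20.7% and 33.5% and for TG against WT under DSS from 19.0% to between 23.4% and 34.9%. For TG against WT at water they went from 4.98% to between 8.38% and 17.5%, beside 0.0% to 10.3% of members. For DSS in TG they went from 13.4% to between 20.7% and 26.1%, beside 15.4% to 25.6% of members. Without WT DSS replicates 2 and 3 together, an alternative chosen after seeing the data, members without overlap numbered 27 for DSS in WT (69.2%, against 53.5% of all genes) and 24 for TG against WT under DSS (61.5%, against 59.0%), with a single WT DSS array left. Whether replicate numbers pair the arrays is not stated in the labels. Of same-number correlations, 1 of 18 was over 0.1 (range -0.484 to 0.377), and in 3 of 18 an array correlated best with its own number. That gave no clear sign of pairing but cannot exclude it. With a replicate block 0 members passed in each comparison, and over all genes the passing counts went from 34 to 0 for DSS in WT and from 8 to 0 for TG against WT under DSS. Those 34 genes were likewise 0 with only the groups compared, quantile normalization, weights per group or an adjusted p under 0.01, 2 with a trended and robust fit, 111 among genes with a spread above the median, 754 with weights per array, 158 without WT DSS replicates 2 and 3, and 0 to 919 without single arrays. The 8 genes were 0 under the first 4 of these and with the trended fit, 4 with each array centred, 273 with weights per array, 56 without both arrays and 0 to 1166 without single arrays. Weights per array also raised the counts of 0 to 1971 for TG against WT at water, 4 for DSS in TG and 12 for the interaction, which otherwise reached 22 without both arrays and 239 without single arrays. The cause of these changes was not tested. With 3 arrays a group, the members that passed changed both with single arrays left out and with settings that kept every array.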
